A study of Rattus norvegicus with 6 samples.

Results

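The 9 genes Lrp2, Cubn, Dab2, Aqp1, Miox, Hnf4a, Slc4a4, Slc13a1 and Slc26a1, which give the kidney's proximal tubule its work and its identity, were followed in the renal cortex of rats given chlorothalonil, a chlorinated nitrile fungicide, or corn oil alone. Their probes were those other than control spots whose accession is a RefSeq transcript of 1 of the genes, which gave 19 of the 61537 probes on the array and 9 of the 29115 features tested. Each of the 19 cleared the background limit on every array, and none was saturated. The rats were male Sprague-Dawley (Crl:CD(SD)) animals, bought at 5 weeks of age. Of these, 3 took corn oil for 4 weeks, and the other 3 took chlorothalonil at 500 mg/kg/day over the same time. Each animal gave 1 Agilent array hybridised with Cy3-labelled cRNA made from total RNA of the cortex. Values, called levels below, are log2 of the processed spot signal over the array's own 75th percentile. A fold change is chlorothalonil minus corn oil on that scale.

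In these data none of the 9 genes passed an adjusted p of 0.05 in limma, while 3.12% of all features did. The values were small: the 9 fold changes ran from −0.33 for Slc26a1 to 0.17 for Miox, with a median of −0.034. The median over all features tested was 0.0035. Of the 9 genes, 3 were above 0 and 6 below. Of the features tested, 1.3% passed as higher and 1.82% as lower. The 2 groups did not overlap for 3 of the 9 genes, Miox and Slc4a4 higher and Slc26a1 lower with chlorothalonil. Across the features tested, 27.7% had groups without overlap, 13.6% higher and 14% lower. Before adjustment, limma gave p under 0.05 to 2 of the 9, Miox higher and Slc26a1 lower, against 19.7% of features, 9.6% higher and 10.1% lower. Both counts are near the background and do not set the 9 genes apart.

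Proximal tubule cells recover most of what the glomerulus filters. At their apical surface the giant receptor megalin, made by Lrp2, and its partner cubilin, made by Cubn, bind albumin, vitamin-binding proteins and other filtered proteins, and the clathrin adaptor Dab2 links megalin to the coat that takes it into the cell. Other proteins move water and ions across the same cell, and the nuclear receptor HNF4A, made by Hnf4a, helps to set and keep the proximal tubule programme.

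Several facts of the whole set bear on every value. Corn oil and chlorothalonil samples sat on separate slides with separate scans, so slide and treatment cannot be told apart. The source name of chlorothalonil replicate 3 names a different compound, ethylenediamine dihydrochloride. The title and treatment of that sample say chlorothalonil. Values without it are stated for the brightest probe of each of the 9 genes. For the other named genes that passed, the fits without any single array are described. The marker sums and the remaining genes and probes are given with that sample only. Per array, 62.1% to 67.8% of probes had signals well above background. The 6 bright spike-in controls, which match no rat RNA, differed between the slides by −0.19 to 0.048, chlorothalonil minus corn oil. Only the brightest of them was above 0, and the others lay between −0.19 and −0.10. For the listed markers of other cell types, linear signal was summed in units of the 75th percentile. The red blood cell transcripts gave sums of 475 to 497 with corn oil and 556 to 602 with chlorothalonil. Of their 4 measured members, 4 were higher and 0 past the threshold, while 14798 of the 29115 features were above 0. Hba-a1, at 0.27 ± 0.07, and Hbb, at 0.24 ± 0.07, were the brightest and weigh most in that sum. They were named after their values were seen, and neither passed. The 7 macrophage markers gave sums of 54.6 to 60.3 with corn oil and 47.2 to 51.8 with chlorothalonil. Of these markers, 2 were above 0, 5 below and 0 past the threshold. The brightest of them, Cd74, at −0.30 ± 0.14 and limma adjusted p 0.305, weighs most in that sum. Adgre1 was the lowest, at −0.47 ± 0.12 and limma adjusted p 0.123, without overlap of the groups, and Csf1r was at −0.21 ± 0.12. C1qa, C1qb, Cd68 and Ptprc were between −0.082 and 0.032. These 7 were named after their values were seen. The summed signals of the loop and distal tubule, collecting duct, podocyte, endothelial, fibroblast and tubule injury markers overlapped between groups, and no member of these lists passed. Of the 25 other proximal tubule markers, 24 were measured, and their summed signal was 2479 to 2689 with corn oil and 2818 to 2849 with chlorothalonil. That linear sum weighs the brightest genes most, such as Fbp1, named after its value was seen, which at 0.27 ± 0.07 did not pass. Fbp1 lies within 0.5 log2 units of the mean level of Miox, where 97.8% of features other than the 9 genes were above 0, with a median of 0.19. The part of that brightness range in the sum was not tested. By count, 15 of the 24 were above 0 and 9 below, against 14798 of the 29115 features above 0. Before adjustment 6 of the 24 had p under 0.05 in limma, 4 higher and 2 lower, against 19.7% of all features. The groups did not overlap for 8 of the 24, against 27.7% of all features. After adjustment 2 of the 24 rose and 0 fell, while 1.3% of all features passed as higher and 1.82% as lower. The 2 were the apical organic anion transporters Slc17a1, by 0.96 ± 0.07 (SE), and Slc17a3, by 1.27 ± 0.14. The call of Slc17a1 held without any single array, while that of Slc17a3 held in 1 of those 6 fits. The part of any marker list in the values below was not tested. In whole tissue, fewer cells of a type and less RNA per cell cannot be told apart.

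**Figure D1:**
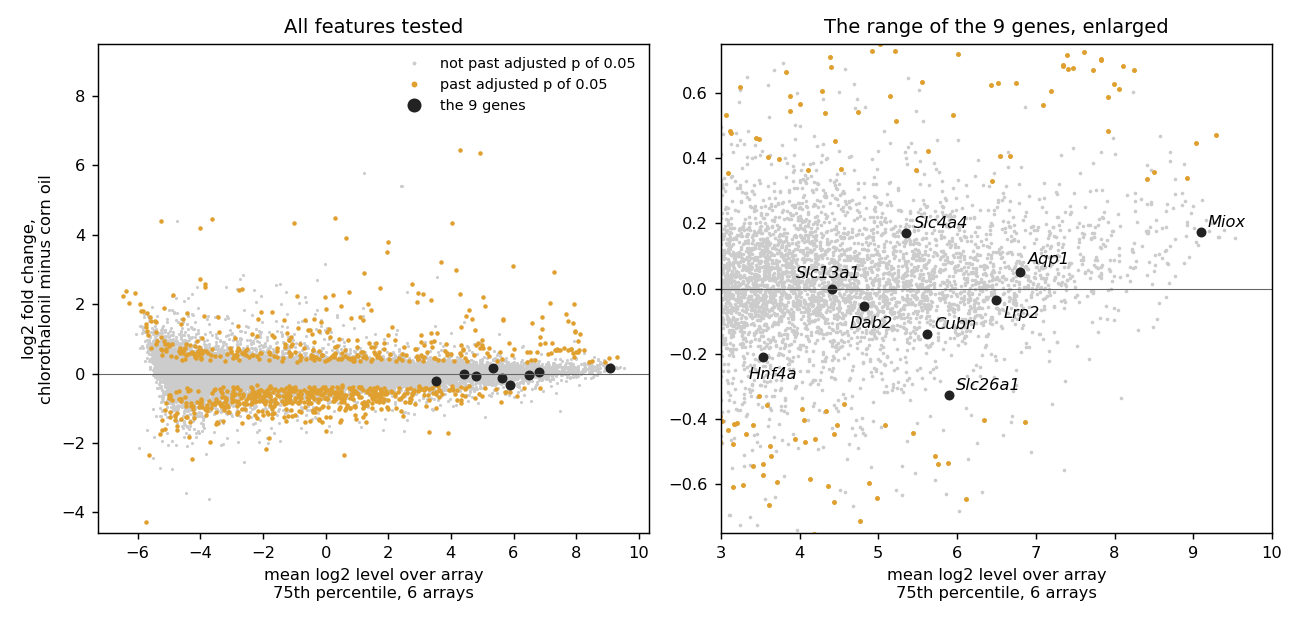
Fold change (log2, chlorothalonil minus corn oil) against mean level over the 6 arrays (log2, relative to the array's 75th percentile) for all features tested, with those past an adjusted p of 0.05 in orange and the 9 genes in black; the right panel enlarges the range of the 9 genes. All 9 lie between −0.33 and 0.17, inside the grey cloud, and Miox sits at the bright end, where nearly all features are above 0.

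Lrp2 had levels of 6.59, 6.48 and 6.47 in corn oil replicates 1 to 3 and of 6.48, 6.48 and 6.48 in chlorothalonil replicates 1 to 3. The treated arrays lay within the corn oil range, and only corn oil replicate 1 stood off from the other five. The fold change was −0.034 ± 0.063 (SE, n = 3 per group), with a limma adjusted p of 0.815 and a 95% interval from −0.19 to 0.12. A second Lrp2 probe gave 5.91, 5.92 and 5.83 with corn oil and 5.68, 5.71 and 5.75 with chlorothalonil. On that probe the groups did not overlap, and the fold change was −0.17 ± 0.06, with an adjusted p of 0.221 over all kept probes. Without chlorothalonil replicate 3 the first probe was at −0.033.

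Cubn had levels of 5.84, 5.71 and 5.52 with corn oil and of 5.60, 5.59 and 5.46 with chlorothalonil. The corn oil arrays spread more widely (SD 0.16) than the treated ones (SD 0.075), and the groups overlapped at corn oil replicate 3. The fold change was −0.14 ± 0.10 (SE), with a limma adjusted p of 0.493 and a 95% interval from −0.38 to 0.10, and it was −0.096 without chlorothalonil replicate 3. An interval of that width does not bound the change of Cubn tightly: in percent it ran from −23.3% to 7.49%.

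For Dab2 the brighter probe read 4.87, 4.82 and 4.84 with corn oil and 4.82, 4.90 and 4.65 with chlorothalonil. Chlorothalonil replicate 3 was the low one, and the other 2 treated arrays lay in or above the corn oil range. The fold change of −0.053 ± 0.083 (SE; adjusted p 0.769 in limma) turned to 0.017 without that array. The second Dab2 probe showed the same low array more strongly, with 2.31, 2.29 and 2.41 for corn oil and 2.34, 2.31 and 1.88 for chlorothalonil, and a fold change of −0.16 ± 0.14.

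**Figure D2:**
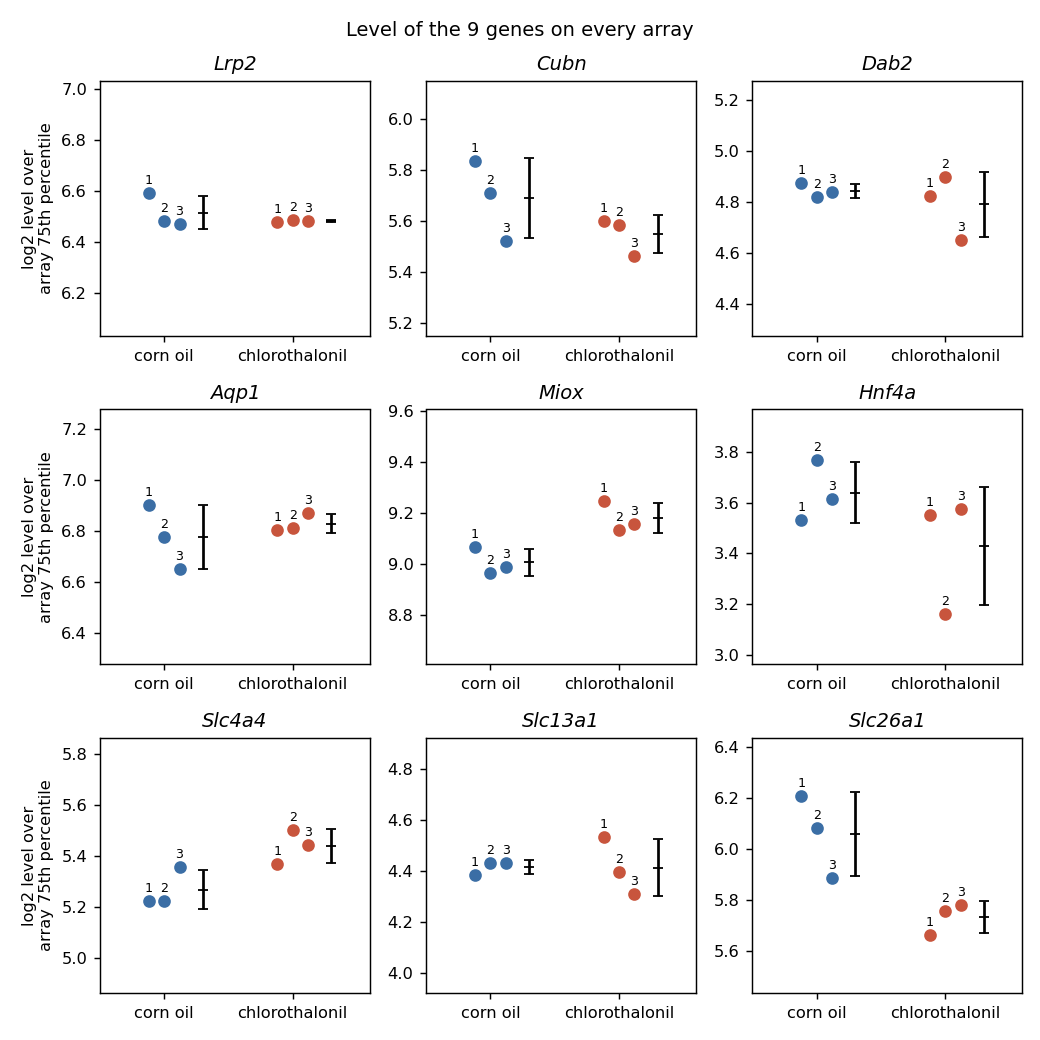
Level of each of the 9 genes on its brightest probe (log2, relative to the array's 75th percentile), corn oil in blue and chlorothalonil in red, with the replicate number beside each point and the mean ± SD of the 3 arrays to the right; every panel spans the same height of 1 log2 unit. The groups separate for Miox, Slc4a4 and Slc26a1 and overlap for the other six.

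The genes that work beside these receptors in uptake and breakdown were read from a list of 30, of which 26 were measured. Of these, 1 rose, 0 fell and 25 did not pass, with 13 above 0, 13 below and a median of 0.0073, while 3.12% of all features passed. Before adjustment 5 of the 26 had p under 0.05 in limma, 1 higher and 4 lower, against 19.7% of all features. The gene that passed was Folr1, the folate receptor that megalin helps to internalise. Its levels were 6.35, 6.36 and 6.31 with corn oil and 6.75, 6.82 and 6.68 with chlorothalonil, without overlap. It rose by 0.41 ± 0.06 (SE), with a limma adjusted p of 0.0378, and its second probe gave 0.42. That adjusted p lay between 0.0806 and 0.126 when any single array was left out, and was 0.082 with quantile normalization, so the call was lost in each of these fits. The fold change itself was 0.37 to 0.44 with an array left out and 0.34 with quantile normalization, and with scaling to the array median the adjusted p was 0.0397. Testing dim probes as well gave 0.118. Amn, the amnionless subunit that anchors cubilin in the membrane, was at −0.24 ± 0.095, adjusted p 0.244. The endosomal chloride exchanger Clcn5 was at −0.070 ± 0.104, and the lysosomal protease Lgmn at −0.37 ± 0.15 with an adjusted p of 0.246. Amn, Clcn5 and Lgmn were chosen after their values were seen.

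Aqp1, the constitutive water channel of the proximal tubule and thin descending limb, had levels of 6.90, 6.78 and 6.65 with corn oil and of 6.81, 6.81 and 6.87 with chlorothalonil. All 3 treated arrays lay inside the corn oil range. The fold change was 0.052 ± 0.082 (SE), with a limma adjusted p of 0.774 and a 95% interval from −0.15 to 0.26. It was 0.032 without chlorothalonil replicate 3. Of the 8 other aquaporins listed, all measured, 0 passed in limma, and before adjustment 3 had p under 0.05, against 19.7% of all features. Of these 3, 1 was higher and 2 were lower. Aqp7, a water and glycerol channel named after its value was seen, was at 0.36 ± 0.093, adjusted p 0.113, without overlap of the groups. Aqp8 was at −0.39 ± 0.09 with an adjusted p of 0.0924, and Aqp5 at −0.52 ± 0.13 with 0.102; both were dim, with mean levels of −3.24 and −3.85 with corn oil.

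The bicarbonate carrier Slc4a4, which lets sodium and bicarbonate leave the cell on its blood side, was read by 3 probes. The brightest gave 5.22, 5.23 and 5.36 with corn oil and 5.37, 5.51 and 5.45 with chlorothalonil. The groups did not overlap, though corn oil replicate 3 and chlorothalonil replicate 1 lay close together. The fold change was 0.17 ± 0.07 (SE), with a limma adjusted p of 0.275 and a 95% interval from −0.0097 to 0.35, and it was 0.17 without chlorothalonil replicate 3. The third probe, at 0.19 ± 0.07, also did not overlap, while the second was at 0.063 ± 0.068 and overlapped. With the normexp background correction in place of the scanner's own, the value of the brightest probe was 0.0097, so its size depends on that step. Among the 11 listed genes of bicarbonate and sodium movement, 0 passed in limma, and before adjustment 4 had p under 0.05, 3 higher and 1 lower, against 19.7% of all features. Slc4a7, another sodium bicarbonate carrier, was at 0.59 ± 0.11 with an adjusted p of 0.0546, on a dim probe with a mean level of −4.39 in corn oil. Fxyd2, the gamma subunit of the sodium pump, was at 0.19 ± 0.06, adjusted p 0.168. The other 2 were named after their values were seen. The apical sodium proton exchanger Slc9a3 was at 0.41 ± 0.14, limma adjusted p 0.197. Its groups only just separated, with corn oil replicate 2 at 0.317 and chlorothalonil replicate 2 at 0.318. The 3 probes of Slc9a3 ran from −0.22 to 0.47, with 2 above 0. The membrane-bound carbonic anhydrase Car4 was at −0.32 ± 0.10, limma adjusted p 0.182, without overlap of the groups.

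**Figure D3:**
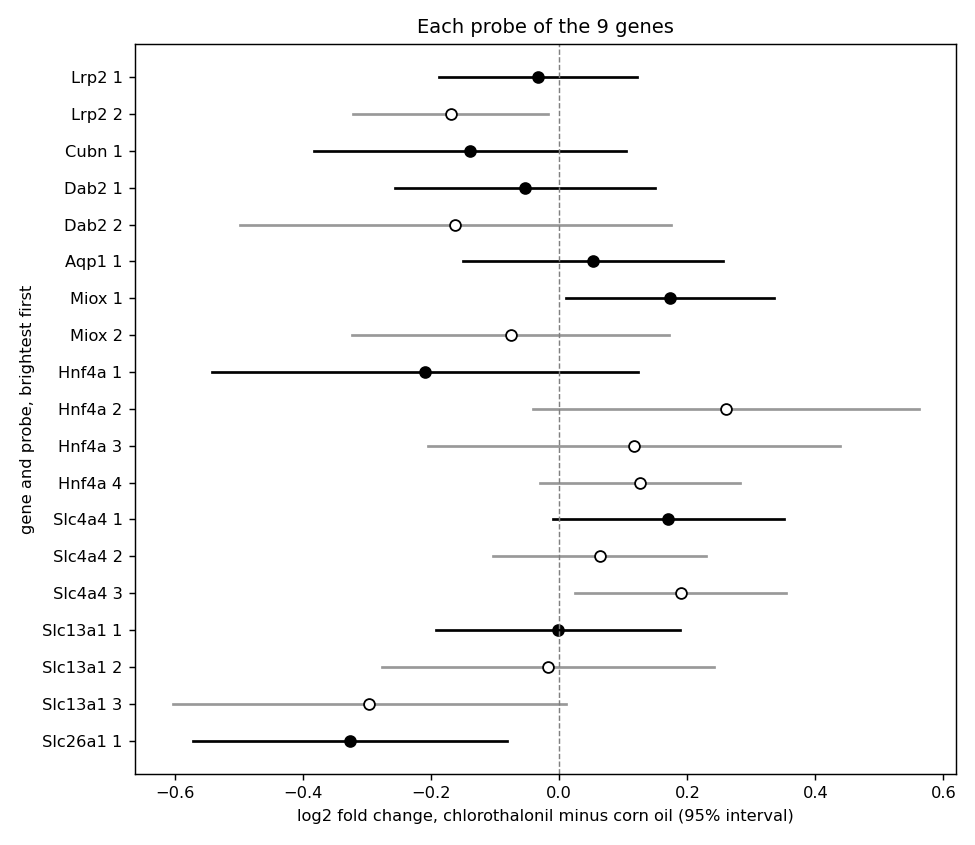
Fold change (log2, chlorothalonil minus corn oil) of each of the 19 probes, with its 95% limma interval; filled points are the brightest probe of each gene, and open points the gene's other probes. Most intervals cross 0, and the probes of Miox and of Hnf4a fall on both sides of it.

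Sulfate is taken back from the filtrate by 2 carriers of different families, the sodium-coupled Slc13a1 at the apical surface and the anion exchanger Slc26a1 at the basolateral one. Slc26a1 had levels of 6.21, 6.08 and 5.89 with corn oil and of 5.66, 5.76 and 5.78 with chlorothalonil, from processed signals of 66518, 65022 and 54942 against 45215, 50226 and 46214. Every treated array lay below every corn oil array, with corn oil replicate 3 the nearest. This was the widest difference among the 9 genes, at −0.33 ± 0.10 (SE), or −20.3% with a 95% interval from −32.7% to −5.52%. Its limma adjusted p was 0.158, which does not pass. The value stayed below 0 in all 16 alternatives, between −0.41 and −0.25, with adjusted p from 0.0781 to 0.337. Without chlorothalonil replicate 3 it was −0.35. The 689 other features within 0.5 log2 units of its mean level had a median fold change of 0.016, with quartiles of −0.060 and 0.11.

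For Slc13a1 the brightest probe read 4.38, 4.43 and 4.43 with corn oil and 4.53, 4.40 and 4.31 with chlorothalonil. The treated arrays lay on both sides of the tight corn oil group, and the fold change was −0.0020 ± 0.0772 (SE) with a limma adjusted p of 0.992 and a 95% interval from −0.19 to 0.19. Its second probe was at −0.017 ± 0.105, and the third, dim one at −0.30 ± 0.13, with an adjusted p of 0.275 over all kept probes. Without chlorothalonil replicate 3 the first probe was at 0.049. Whether Slc13a1 and Slc26a1 differ in their response was not tested.

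Of 12 genes listed for sulfate supply and use, 10 were measured, with a median of 0.16. Of these, 1 rose and 0 fell, while 3.12% of all features passed, 1.3% as higher. Before adjustment 2 of the 10 had p under 0.05 in limma, 2 higher and 0 lower, against 19.7% of all features. The gene that rose was Bpnt1, a phosphatase that clears the nucleotide left after sulfation. It went from 2.93, 2.89 and 2.85 with corn oil to 3.23, 3.44 and 3.43 with chlorothalonil, by 0.48 ± 0.08 (SE), with a limma adjusted p of 0.0424. Leaving out any single array gave an adjusted p between 0.0628 and 0.137, so this call too was lost without any 1 of them, at fold changes of 0.44 to 0.55, and testing dim probes as well gave 0.123.

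The promoter of Slc26a1 is shown because its groups separate most among the 9, and beside it that of Miox, whose groups separate in the other direction. Both are the 250 bases before an annotated start, from RefSeq on build GRCr8, where Slc26a1 lies at chr14:1184721-1184970 and Miox at chr7:122284410-122284659, both on the plus strand. Capitals mark exact matches, on either strand, to any of these letter motifs: the HNF4 motif CAAAGTCCA and its shorter core CAAAGT, the antioxidant response core TGACNNNGC, the TATA motif TATAAA, the CCAAT box, the GC box GGGCGG, or the HNF1 motif, which is GTTAAT followed after any 1 base by ATTA.
Slc26a1: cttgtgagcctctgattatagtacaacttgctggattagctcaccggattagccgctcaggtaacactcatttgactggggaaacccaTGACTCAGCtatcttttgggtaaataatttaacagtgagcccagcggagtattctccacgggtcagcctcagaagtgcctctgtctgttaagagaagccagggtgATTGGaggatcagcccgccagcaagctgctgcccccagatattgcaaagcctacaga
Miox: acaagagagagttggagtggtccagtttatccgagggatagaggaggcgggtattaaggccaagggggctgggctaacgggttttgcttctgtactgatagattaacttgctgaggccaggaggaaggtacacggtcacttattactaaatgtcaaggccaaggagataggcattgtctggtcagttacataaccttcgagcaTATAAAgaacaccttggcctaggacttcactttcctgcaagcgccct
In Slc26a1 the capitals are the antioxidant response letters TGACTCAGC, 162 to 154 bases before the start, and CCAAT read on the other strand as ATTGG, 57 to 53 bases before it. In Miox they are a TATAAA, 47 to 42 bases before the start. Over all 33469 such windows, 10.1% hold the antioxidant response core, 34.0% hold CCAAT and 12.9% hold TATAAA. The 9 genes have 10 windows, since Hnf4a has 2, and 2 of these 10 hold the antioxidant response core. The long HNF1 and HNF4 motifs are in 0.105% and 0.338% of all windows and in 0 of these 10, while the core CAAAGT is in 12.9% of all and in 3 of these 10, those of Lrp2, Cubn and Slc4a4. A match is a stretch of letters and says nothing about binding.

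Miox encodes myo-inositol oxygenase, which opens the inositol ring in the first step of inositol breakdown and is known as an enzyme of the proximal tubule. Its brightest probe had levels of 9.07, 8.97 and 8.99 with corn oil and of 9.25, 9.13 and 9.16 with chlorothalonil, without overlap. The fold change was 0.17 ± 0.07 (SE), with a limma adjusted p of 0.229 and a 95% interval from 0.011 to 0.34, and it was 0.18 without chlorothalonil replicate 3. The other Miox probe read 7.25, 7.18 and 6.95 with corn oil and 7.11, 7.08 and 6.96 with chlorothalonil, where the groups overlapped and the fold change was −0.076 ± 0.101.

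The brightest Miox probe lies where almost every feature was higher on the chlorothalonil slide. Of 45 other features within 0.5 log2 units of its mean level of 9.09, 97.8% were above 0, with a median of 0.19. Of the 45, 3 were past the threshold. The 0.17 of Miox lay between their quartiles of 0.13 and 0.26. The brightest spike-in control, at a mean level of 9.22, differed between the slides by 0.048. What raised the features at that brightness was not tested. Quantile normalization, which gives all arrays the same distribution, turned Miox to −0.073. For the other eight genes the median of features within the same distance lay between 0.0089 and 0.035, and between 52.6% and 66.0% of them were above 0.

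Among 11 genes of inositol and glucuronate metabolism, all measured, 1 rose, 0 fell and 10 did not pass, with a median of 0.096. Cryl1, the gulonate dehydrogenase further along the route that Miox opens, had levels of 6.66, 6.58 and 6.44 with corn oil and of 7.79, 7.33 and 7.26 with chlorothalonil. It rose by 0.90 ± 0.16 (SE), or 1.86-fold, with a limma adjusted p of 0.0458, and its second probe gave 1.08. Its adjusted p was 0.0522 with quantile normalization, 0.116 with dim probes tested as well, and 0.0628 to 0.118 with any single array left out, where the fold change was 0.73 to 1.13. In all, 79 of the 86 companion genes were measured, and 3 of them passed, Folr1, Bpnt1 and Cryl1, all higher. Of all features 3.12% passed, 1.3% as higher. Among the 11926 features with a gene symbol, 172 passed as higher and 83 as lower. Without chlorothalonil replicate 3, as without any other single array, 0 of the 79 passed in limma, and the same count of 0 came from testing dim probes too. With all 6 arrays, before adjustment, 17 of the 79 had p under 0.05, 9 higher and 8 lower, against 19.7% of all features.

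**Figure D4:**
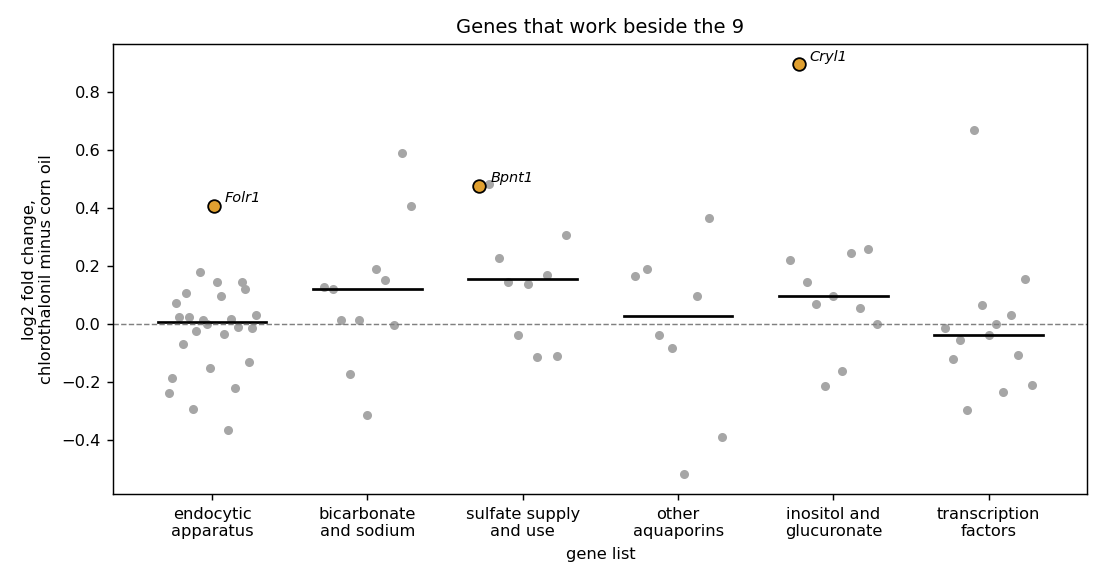
Fold change (log2, chlorothalonil minus corn oil) of each measured gene in the 6 lists of genes that work beside the 9, with the list median as a bar and the genes past an adjusted p of 0.05 in orange. Folr1, Bpnt1 and Cryl1 are the 3 that passed, and each list's median lies between −0.040 and 0.16.

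Hnf4a was the gene whose probes disagreed most. Its brightest probe had levels of 3.53, 3.77 and 3.62 with corn oil and of 3.55, 3.16 and 3.58 with chlorothalonil. The groups overlapped, and chlorothalonil replicate 2 alone was low. The fold change was −0.21 ± 0.14 (SE), with a limma adjusted p of 0.452 and a 95% interval from −0.54 to 0.12. It was −0.28 without chlorothalonil replicate 3, and −0.075 without chlorothalonil replicate 2.

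The other Hnf4a probes were all above 0. One probe on the same transcript record as the brightest was at 0.12 ± 0.13 (SE), and 2 probes on a second transcript record were at 0.26 ± 0.12 and 0.13 ± 0.06. On the last of these the groups did not overlap, with 0.091, −0.021 and 0.016 for corn oil and 0.15, 0.20 and 0.12 for chlorothalonil, at an adjusted p of 0.351 over all kept probes. The mean of the 4 probes gave a fold change of 0.073, so the sign for the gene depends on the probe, and no direction is given for Hnf4a.

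Hnf4a is known to start from an upstream promoter used in the pancreas and a downstream one used in liver and kidney, and the RefSeq table on GRCr8 holds 2 windows for it. Both lie on the plus strand, the upstream one at chr3:172605970-172606219 and the downstream one at chr3:172641586-172641835. They are shown because the probes belong to 2 transcript records, although neither record could be assigned to a window here. Capitals mark the motifs spelled out for Slc26a1.
Hnf4a upstream: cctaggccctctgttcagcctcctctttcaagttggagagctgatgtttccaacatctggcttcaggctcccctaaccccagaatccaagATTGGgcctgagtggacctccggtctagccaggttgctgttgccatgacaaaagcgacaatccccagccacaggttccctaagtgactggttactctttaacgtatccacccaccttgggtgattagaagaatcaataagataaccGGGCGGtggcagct
Hnf4a downstream: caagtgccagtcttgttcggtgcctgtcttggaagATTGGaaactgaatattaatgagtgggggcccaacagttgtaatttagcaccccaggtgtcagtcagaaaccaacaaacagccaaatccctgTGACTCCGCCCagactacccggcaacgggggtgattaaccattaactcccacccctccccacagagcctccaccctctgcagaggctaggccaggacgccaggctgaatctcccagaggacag
The upstream window holds CCAAT on the other strand, 160 to 156 bases before the start, and a GC box 14 to 9 bases before it. The downstream window holds CCAAT on the other strand at 215 to 211, and the antioxidant response letters TGACTCCGC at 123 to 115, which overlap a GC box on the other strand at 118 to 113. CCAAT is in 34.0% and the GC box in 30.5% of all windows.

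Among 14 other transcription factors of the tubule, 13 were measured and 0 passed in limma, with 4 above 0, 9 below and a median of −0.040. Before adjustment 2 had p under 0.05 in limma, 1 higher and 1 lower, against 19.7% of all features. Klf15, which is induced by glucocorticoids, was at 0.67 ± 0.24 (SE), adjusted p 0.199, with overlapping groups.

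Read probe by probe, 8 of the 19 probes were above 0 and 11 below, and 0 passed in limma, against 2.67% of all 39862 kept probes. The groups did not overlap on 6 of the 19, 4 higher and 2 lower, against 27.0% of all kept probes. Of the 6 genes with more than 1 probe, Miox and Hnf4a had probes of both signs.

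The 3 genes that varied most over the 6 arrays were Slc26a1, Hnf4a and Cubn, with SDs of 0.21, 0.20 and 0.13. Likeness to other genes was measured as the root mean square difference between profiles over the 6 arrays, each centred on its own mean, among 11307 named genes well above background on all 6. The nearest to Slc26a1 were Sfrp5, a secreted Wnt inhibitor, at 0.040, and Tsc22d2 at 0.041, where the median gene was at 0.24. For Hnf4a they were Iws1, a factor of transcript elongation, and Extl3, a heparan sulfate glycosyltransferase, both at 0.052, and for Cubn the zinc transporter Slc30a2 at 0.021 and the collagen chain Col5a3 at 0.022. None of these 6 passed in limma, and their adjusted p-values ran from 0.134 to 0.525. They were picked for likeness on these same arrays to genes that did not pass, so this is no separate result.

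**Figure D5:**
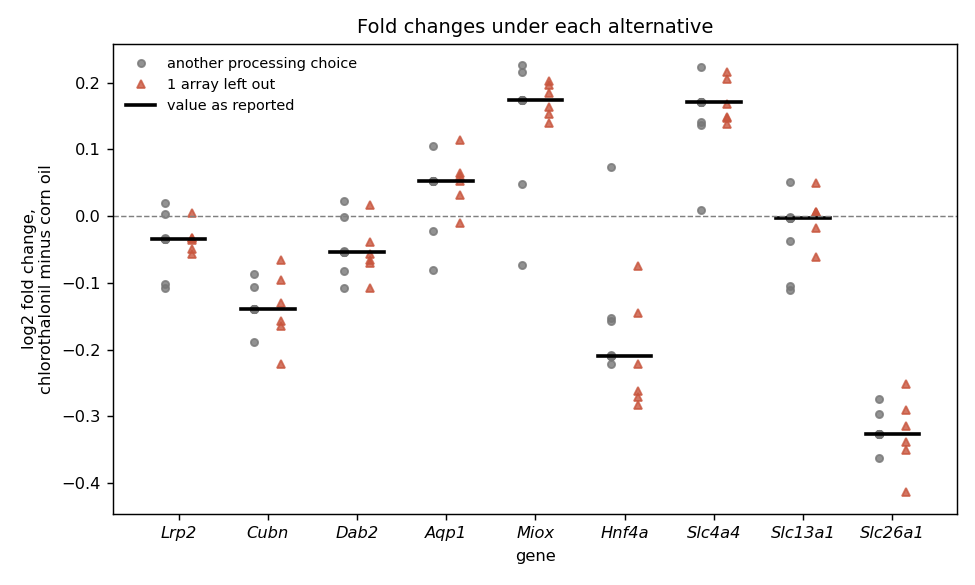
Fold change (log2, chlorothalonil minus corn oil) of each of the 9 genes as reported (bar), under the other processing choices (grey circles) and with each array left out in turn (red triangles). Cubn, Slc4a4 and Slc26a1 stay on 1 side of 0 throughout, and the other six reach both sides.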

How the data were processed

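The authors deposited, for each spot, a linear intensity from Agilent Feature Extraction 10.7 per the submitters' processing notes. Per the file headers the processed signal is background-subtracted and detrended within each array, and the array design used build rn4. The deposited value table holds a ratio, the processed signal over about each array's 75th percentile. It is linear and not centred, no label states its scaling, and its direction is that of the signal. The median of its columns, in replicate order, was 0.107, 0.109 and 0.112 (corn oil), then 0.105, 0.105 and 0.106 (chlorothalonil).

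From the deposited intensity, the level was computed as log2 after division by the 75th percentile of the array's probes other than controls. Probes entered the test where well above background on all 3 arrays of a group and free of outlier flags on 2 or more arrays in each group, leaving 39862 probes. Accessions were matched without versions to a RefSeq table of GRCr8. The brightest kept probe stood for a gene. The test was limma 3.58.1 (lmFit and eBayes, R 4.3.3) on 29115 features, with no covariate, Benjamini-Hochberg adjustment over all of them and a threshold of 0.05. SE and 95% intervals come from that fit, and the fit was tested on simulated data. Of the 29115 features, 909 passed, 378 higher and 531 lower; with scaling to the array median 435 were higher and 368 lower. The number of arrays limits the precision.

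The 9 genes, the lists and the rule for named genes were chosen with earlier results of these data known. The rule named all 9 genes, list members past the threshold or else the 2 with the smallest p, and the 2 nearest profiles of the 3 most variable genes. Of the genes so named, 1 is not reported here. Replicates are called biological in the series' design text. Replicate numbers are shared between the groups but the labels tie them to nothing. The alternatives were normexp on the median spot signal, quantile and median scaling, the deposited table, 2 other filters, outlier spots kept, the mean of probes, every probe alone, a trended robust prior, the replicate block and each array left out. A slide block could not be fitted.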

Additional observations from a re-analysis of the deposited data

How the results depend on the processing

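Across all 16 alternatives that give 1 value per gene, 0 of the 9 genes passed in limma, and Cubn, Slc4a4 and Slc26a1 kept their sign in each. Reversed values, none past the threshold, were as follows. With normexp, Lrp2 was at 0.0028, Dab2 at 0.023 and Aqp1 at −0.081. With quantile normalization, Aqp1 was at −0.022 and Miox at −0.073. With median scaling, Lrp2 was at 0.019 and Slc13a1 at 0.050, and with the mean of probes Hnf4a was at 0.073. Leaving out 1 array gave −0.056 to 0.0047 for Lrp2, −0.11 to 0.017 for Dab2, −0.010 to 0.11 for Aqp1 and −0.062 to 0.049 for Slc13a1. The cause was not tested, other than by the construction of each alternative.

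The count of features higher was 589 with normexp (736 lower), 580 with the trended prior (735 lower), 78 with no filter on dim probes and 0 with the replicate block, and that of features lower was 94 with no filter and 0 with the block, where 18.1% of features had p under 0.05 before adjustment in limma. With 1 array left out the count higher was 56 to 205 and lower 71 to 196. Companion genes called higher were 0 with no filter, 0 with the replicate block and 0 without any single array, and 1 was called lower with normexp. The replicate numbers are not shown to pair the samples: same-numbered arrays had deviations that correlated at 0.095, 0.018 and 0.051 over features, all under 0.1. A slide block could not be run because each slide holds 1 group.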
